A study of Mus musculus with 100 samples.

Results

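The genes described here are 9 complement genes of the mouse knee joint, C1qa, C1qb, C1qc, C1ra, C2, C3, C4b, Cfb and C3ar1. They were taken by name from a table of read counts for 17310 genes, and all 9 were in the table and passed the filter on low counts. The table holds 100 RNA-seq libraries of whole knee joints from MRL/MpJ, C57BL/6 and STR/ort mice, which the labels call not, moderately and highly susceptible to post-traumatic osteoarthritis. A single compressive load of 10 to 12 N was applied to the right knee at 10 weeks of age to rupture the anterior cruciate ligament (ACL). Injured right joints and the uninjured contralateral joints were collected 1-day, 1-week or 2-weeks later, and joints of uninjured mice at 0-day. This gives 21 groups of 4 or 5 libraries, with 12 libraries at 0-day, 30 at 1-day, 28 at 1-week and 30 at 2-weeks. The labels put the 70 libraries of 0-day, 1-day and 1-week in batch 1 and the 30 libraries of 2-weeks in batch 2, and a difference of 2-weeks from an earlier time cannot be told apart from one of batch. Only the 2-weeks labels name the animals. At the other times nothing says which libraries come from separate animals, and p-values there measure only the spread between libraries.

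Complement is a cascade of plasma and tissue proteins that tags and removes microbes, debris and damaged cells. C1q, built from the products of C1qa, C1qb and C1qc, recognises a target and activates the proteases C1r and C1s, which cleave C4 and C2 to form the classical pathway convertase. Factor B, the product of Cfb, does the work of C2 in the alternative pathway. Both convertases cleave C3, and the fragment C3a signals through the receptor encoded by C3ar1 on myeloid cells. Liver makes most complement of the plasma, while C1q comes mainly from macrophages, and fibroblasts and other joint cells also make several components. Complement activation has been studied in osteoarthritic joints, where fragments of cartilage matrix can bind C1q.

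The 3 C1q genes lie side by side on the minus strand of chromosome 4 (GRCm38.p6), C1qa at 136895916 to 136898844, C1qc at 136889801 to 136892936 and C1qb at 136880126 to 136886200. C4b (34728139 to 34743902), Cfb (34856374 to 34862514) and C2 (34862602 to 34882100) share the complement region of chromosome 17, also on the minus strand, and C3 lies at 57203967 to 57228136 of the same chromosome. C3ar1 (122847140 to 122856157, minus strand) and C1ra (124512621 to 124523440, plus strand) are on chromosome 6. RefSeq promoter sequences were at hand for 5 of the 9 genes, and those of C1qb, C1qc, C3 and C3ar1 are shown because C1qb and C1qc were called together in 1 injury comparison, C3 in none and C3ar1 in all 9. Each line holds the 250 bases before the RefSeq start site, 5′ to 3′ on the gene's own strand, GRCm38.p6, at chr4:136886201-136886450, chr4:136892915-136893164, chr17:57228137-57228386 and chr6:122856158-122856407. For C1qc that start lies inside the gene span given above, so the 3′ end of its window is within the span. Capitals mark matches, on either strand, to the letters of a PU.1 motif (GAGGAA) or a C/EBP motif (TTNNGNAA).
C1qb: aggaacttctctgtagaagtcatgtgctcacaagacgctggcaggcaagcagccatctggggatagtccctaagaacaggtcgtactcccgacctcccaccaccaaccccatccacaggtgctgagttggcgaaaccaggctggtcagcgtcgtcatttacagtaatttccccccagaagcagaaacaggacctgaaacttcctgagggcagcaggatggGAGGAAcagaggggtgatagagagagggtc
C1qc: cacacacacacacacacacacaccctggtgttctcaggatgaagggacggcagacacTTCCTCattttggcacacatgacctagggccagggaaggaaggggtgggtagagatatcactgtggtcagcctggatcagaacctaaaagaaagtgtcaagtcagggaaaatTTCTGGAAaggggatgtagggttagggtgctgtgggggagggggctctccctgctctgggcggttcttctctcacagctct
C3: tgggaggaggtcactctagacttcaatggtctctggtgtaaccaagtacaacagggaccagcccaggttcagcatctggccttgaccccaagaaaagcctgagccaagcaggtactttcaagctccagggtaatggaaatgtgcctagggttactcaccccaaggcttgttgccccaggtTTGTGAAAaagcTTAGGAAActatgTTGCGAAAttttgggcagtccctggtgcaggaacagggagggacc
C3ar1: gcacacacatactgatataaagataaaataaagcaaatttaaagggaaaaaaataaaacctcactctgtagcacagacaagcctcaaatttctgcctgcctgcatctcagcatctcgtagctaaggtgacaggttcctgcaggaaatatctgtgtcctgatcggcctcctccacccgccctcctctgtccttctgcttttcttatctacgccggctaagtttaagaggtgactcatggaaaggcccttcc

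PU.1, a factor of myeloid cells, had a match in the windows of C1qb, beginning 30 bases before the start, and of C1qc, 193 bases before it. The C/EBP letters were found once in C1qc and at 3 positions in C3, 70, 58 and 45 bases before the start, the last of which matches on both strands and so counts once here. The window of C1ra, not shown, held 2 C/EBP matches. Of 32851 promoters of this length, 23.3% held the PU.1 letters, 36.8% the C/EBP letters, 1.21% the NF-kappaB letters (GGGA, any 2 bases, TTCC) and 2.98% the interferon-response letters (GAAA, any 2 bases, GAAA). None of the 4 motifs was found in the C3ar1 window, and neither of the last 2 in any of the 5 windows.

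All 9 genes were expressed in uninjured joints, and C3 stood above the rest. Levels are CPM, the read count scaled to a common library size, and to compare genes with each other they were divided by the length of the gene's exons in kilobases. At 0-day, C3 reached 125 CPM per kb in MRL/MpJ, 151 in C57BL/6 and 112 in STR/ort, each a mean of 4 libraries. C1qa followed with 37.7 to 45.7 CPM per kb, and C1qb and C1qc lay between 10.9 and 27.6. C4b ranged over strains from 1.81 to 15.4, Cfb from 8.38 to 14.3 and C1ra from 4.51 to 9.67. C2, at 3.44 to 4.98, and C3ar1, at 1.44 to 3.45 CPM per kb, were at the low end. The lowest count of any of the 9 genes in any library was 33, for C2, and library totals ran from 6182016 to 20986027.

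Marker genes of the cells in a joint were present in all libraries. The sum of 10 macrophage markers ran from 321 to 953 CPM, that of 10 synovial and tissue fibroblast markers from 7191 to 60978 CPM, and that of 8 chondrocyte markers from 1071 to 7015 CPM. Markers of marrow neutrophils and muscle were also high, at up to 20188 and 100342 CPM. The 3 liver markers found in the table summed to 0.233 to 7.98 CPM, with Alb at 0 in 26 libraries. In whole joints a lower level can mean fewer cells of a type or less RNA per cell, and these cannot be told apart.

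Before injury the strains differed most in C4b, the gene of complement component C4. In MRL/MpJ it was at 11, 9.07, 9.13 and 9.83 CPM in the 4 libraries, in C57BL/6 at 95.0, 68.2, 68.8 and 98.9 CPM, and in STR/ort at 81.8, 57.3, 63.8 and 60.5 CPM. Every MRL/MpJ library was far below every library of the other strains. The fitted difference was 8.66-fold for C57BL/6 over MRL/MpJ (log2 3.11, SE 0.15, adjusted p = 3.3e-11) and 6.73-fold for STR/ort over MRL/MpJ (log2 2.75, SE 0.16, adjusted p = 2.2e-10). Adjusted p values come from the edgeR quasi-likelihood test over all genes, and a gene was called when adjusted p was below 0.05 and the fold change above 1.5.

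C3ar1, the C3a receptor, was also lowest in MRL/MpJ at 0-day. It measured 5.79, 6.05, 7.06 and 5.86 CPM there, against 17.2, 13.8, 11.1 and 17.3 CPM in C57BL/6 and 16.5, 10.5, 11.8 and 12.4 CPM in STR/ort. MRL/MpJ overlapped neither other strain, and the log2 differences were 1.31 (SE 0.17, adjusted p = 8.85e-06) for C57BL/6 and 1.07 (SE 0.18, adjusted p = 1.07e-04) for STR/ort. C1ra, a C1r protease gene, had a mean of 13.5 ± 1.01 CPM (SD, n = 4) in MRL/MpJ, 20.6 ± 1.05 in C57BL/6 and 28.8 ± 8.33 in STR/ort. Cfb was higher in C57BL/6 than in MRL/MpJ by 0.82 (SE 0.15, adjusted p = 2.28e-04).

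The C1q genes divided the strains in another way. C1qc was at 36.4, 29.8, 33.2 and 33.5 CPM in C57BL/6, at 20.5, 18.6, 16.5 and 17.8 in MRL/MpJ and at 15.2, 13.9, 10.2 and 13 in STR/ort. No library of one strain reached those of the next, with log2 differences of -1.38 for STR/ort over C57BL/6 (adjusted p = 3.09e-08) and 0.89 for C57BL/6 over MRL/MpJ (adjusted p = 4.34e-06). C1qb was also highest in C57BL/6, at -0.87 (SE 0.14) for STR/ort over C57BL/6 and 0.70 (SE 0.14) for C57BL/6 over MRL/MpJ. C1qa differed less, from 39.2 ± 6.58 CPM in STR/ort to 47.5 ± 8.02 in C57BL/6, and was not called.

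Between MRL/MpJ and C57BL/6, 6 of the 9 genes were called and all were higher in C57BL/6, where 9.64% of all genes tested were called higher. With STR/ort over MRL/MpJ 3 were called higher (background 8.34%), and with STR/ort over C57BL/6 2 were called lower (background 5.99%). These 11 calls of 27 tests are 40.7%, against 14.8% over all genes in the same comparisons. The 9 genes were chosen with earlier results of these data known, and the background includes genes of low count. Such shares are descriptions, here and below. The calls of C1ra, Cfb and C3ar1 between C57BL/6 and MRL/MpJ were lost when 2 factors of unwanted variation were removed with RUVg, with log2 values of 0.31, 0.53 and 1.23 (adjusted p 0.748, 0.602 and 0.176). Of 10 fibroblast markers, 9 were called higher in C57BL/6 than in MRL/MpJ and 6 higher in STR/ort, and of 10 macrophage markers 6 were higher and 1 lower in C57BL/6 than in MRL/MpJ, while 1 was higher and 5 lower in STR/ort than in C57BL/6. Between C57BL/6 and MRL/MpJ, 7 of 8 chondrocyte, 4 of 6 osteoblast and 5 of 5 B cell markers were also called higher, and 6 of 6 muscle markers lower. Between STR/ort and C57BL/6, 5 of 6 muscle markers were called higher in STR/ort, and 4 of 8 chondrocyte, 3 of 5 T cell and 2 of 3 erythroid markers lower. Between STR/ort and MRL/MpJ, 4 of 5 B cell markers were also called higher in STR/ort and 4 of 5 T cell markers lower. Of 10 macrophage markers in that pair, 2 were higher in STR/ort and 3 lower. The part of the marker differences in these results was not tested. The reads were aligned to a genome built from C57BL/6J, so a strain's own sequence and its expression cannot be told apart as sources of a strain difference.

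**Figure D1:**
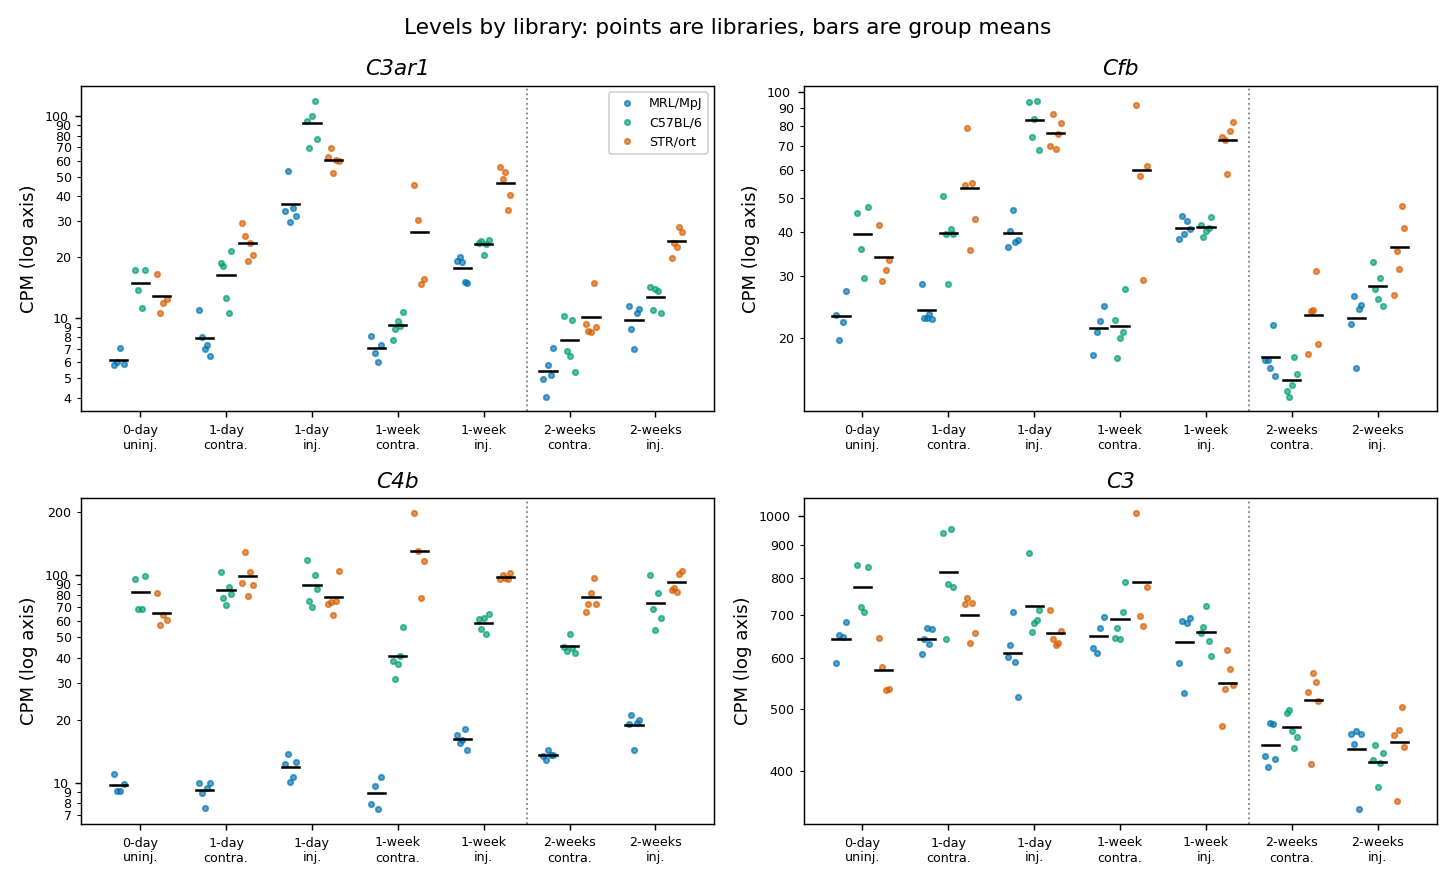
Levels of C3ar1, Cfb, C4b and C3 in each library (points, CPM on a log axis) with group means (bars), by time, joint and strain, where the dotted line separates batch 1 from batch 2. C3ar1 reached 119 CPM in an injured C57BL/6 joint at 1-day, C4b never passed 21.3 CPM in MRL/MpJ, and C3 stayed between 349 and 1009 CPM.

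After ACL injury, C3ar1 was the complement gene that changed throughout. At 1-day it was at 33.9, 53.1, 29.7, 35.0 and 31.9 CPM in injured MRL/MpJ joints and at 10.9, 8.02, 7.01, 7.30 and 6.47 CPM in contralateral joints. In C57BL/6 the injured joints measured 94.4, 69.8, 99.8, 119 and 77.1 CPM and the contralateral joints 18.7, 18.0, 12.5, 10.5 and 21.3 CPM. In STR/ort they measured 62.4, 69.4, 52.1, 60.5 and 60.0 CPM against 29.4, 25.4, 19.2, 23.5 and 20.4 CPM. No injured library overlapped a contralateral one in any strain, and the fold changes were 4.73 in MRL/MpJ (log2 2.24, SE 0.20, adjusted p = 3.68e-09), 5.76 in C57BL/6 (log2 2.53, SE 0.18, adjusted p = 2.09e-11) and 2.54 in STR/ort (log2 1.34, SE 0.17, adjusted p = 1.35e-06).

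At both later times the fitted C3ar1 change was below that of 1-day in each strain and was still called in all 3 strains. The change between times was not tested, and 2-weeks is in batch 2. At 1-week the log2 changes were 1.35 (SE 0.24) in MRL/MpJ, 1.36 (SE 0.21) in C57BL/6 and 0.82 (SE 0.20) in STR/ort, and at 2-weeks 0.84 (SE 0.18), 0.72 (SE 0.18) and 1.25 (SE 0.16). The groups overlapped in 2 of the 9 comparisons, STR/ort at 1-week and MRL/MpJ at 2-weeks. In STR/ort at 1-week, contralateral libraries 1 and 2 were high, at 45.7 and 30.6 CPM, beside 14.7 and 15.5 CPM in the others, and the injured joints ran from 34.1 to 56.2 CPM. That call was lost when only its own groups were fitted (log2 0.82, adjusted p = 0.0815), and it held with each library left out in turn (log2 0.61 to 1.21).

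Cfb, the factor B gene of the alternative pathway, came next with 6 of 9 injury comparisons called, all higher. At 1-day in C57BL/6 it was at 93.2, 74.6, 83.9, 94.4 and 68.3 CPM in injured joints and at 50.5, 39.4, 28.3, 40.7 and 39.3 CPM in contralateral joints, which do not overlap. In MRL/MpJ the same joints gave 36.1, 40.2, 46.0, 37.5 and 38.0 CPM against 28.4, 22.8, 22.7, 23.4 and 22.6 CPM, again with no overlap. The log2 changes were 1.06 (SE 0.14, adjusted p = 2.35e-06) and 0.74 (SE 0.15, adjusted p = 0.00255).

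In STR/ort Cfb overlapped at 1-day, with injured joints at 68.7 to 86.6 CPM and contralateral joints at 35.4 to 78.8 CPM, and its fold change of 1.41 missed the threshold (log2 0.50, SE 0.14, adjusted p = 0.0200). It was above 1.5-fold without contralateral library 2 (log2 0.68). At 1-week Cfb rose by 0.97 (SE 0.18) in MRL/MpJ and 0.95 (SE 0.17) in C57BL/6, and the STR/ort value was 0.29 (SE 0.17, adjusted p = 0.243). At 2-weeks it rose by 0.89 (SE 0.15) in C57BL/6 and 0.64 (SE 0.14) in STR/ort, and stood at 0.35 (SE 0.15, adjusted p = 0.441) in MRL/MpJ. The 2-weeks STR/ort call was lost without injured library 4 (log2 0.53), contralateral library 1 (0.57) or contralateral library 5 (0.58).

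The 3 C1q genes rose together in injured C57BL/6 joints at 1-day. C1qa measured 91.7, 70.4, 78.7, 96.2 and 66.6 CPM there and 45.5, 57.3, 45.3, 50.9 and 43.9 CPM in contralateral joints. C1qb measured 62.9, 36.9, 43.7, 52.5 and 36.0 CPM against 21.6, 16.0, 21, 34.2 and 17.8 CPM, and C1qc 69.6, 51.1, 51.2, 67.5 and 48.4 CPM against 33.1, 40.5, 33.1, 33.4 and 32.7 CPM. No groups overlapped, and the log2 changes were 0.73 (SE 0.10, adjusted p = 5.47e-06), 1.04 (SE 0.16, adjusted p = 1.68e-05) and 0.74 (SE 0.10, adjusted p = 2.05e-06).

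Elsewhere the C1q genes were not called after injury, with log2 values between -0.26 and 0.54. In MRL/MpJ at 1-day C1qa was at 49.4 ± 3.12 CPM in injured and 45.1 ± 3.86 CPM in contralateral joints (SD, n = 5). In STR/ort it was at 53.9 ± 9.37 and 60.5 ± 6.03 CPM. At 2-weeks in STR/ort, C1qb was higher in every injured than in every contralateral library (log2 0.54, SE 0.11, adjusted p = 8.14e-04), below the 1.5-fold threshold.

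**Figure D2:**
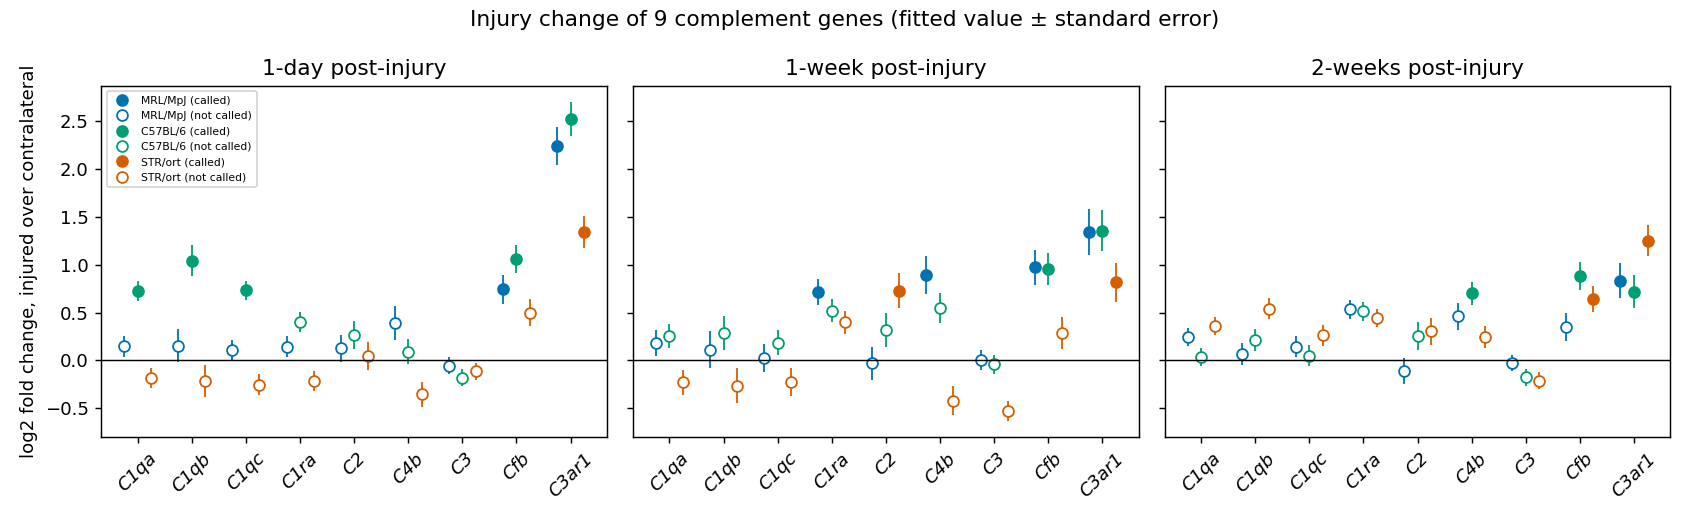
Fitted log2 fold change of injured over contralateral joints for the 9 genes, with standard errors, by strain and time, where filled points were called and open points were not. C3ar1 is filled at every time in every strain, while C3 lies between -0.53 and 0.00 with only open points.

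C4b, C1ra and C2 were each called in 1 or 2 injury comparisons. C4b was at 17.0, 15.4, 16.1, 18.2 and 14.3 CPM in injured MRL/MpJ joints at 1-week and at 7.92, 9.67, 7.46 and 10.7 CPM in contralateral joints, with no overlap (log2 0.89, SE 0.20, adjusted p = 0.00532). That call was lost with 2 RUVg factors removed (log2 0.71, adjusted p = 0.0761). At 2-weeks C4b was higher in injured C57BL/6 joints by 0.70 (SE 0.12, adjusted p = 1.38e-04), and by 0.56 without injured library 1, the highest at 100 CPM.

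C1ra was at 24.0, 20.01, 23.7, 26.8 and 19.9 CPM in injured MRL/MpJ joints at 1-week against 15.3, 12.8, 14.2 and 14.9 CPM, and rose by 0.71 (SE 0.13, adjusted p = 5.34e-04). It also had adjusted p below 0.05 in 6 other injury comparisons, with log2 values of 0.40 to 0.53 that lie under 1.5-fold. C2 was at 22.3, 17.2, 12.5, 18.9 and 13 CPM in injured STR/ort joints at 1-week and at 12.2, 9.31, 7.15 and 11.9 CPM in contralateral joints. Its log2 change was 0.73 (SE 0.18, adjusted p = 0.00442), and 0.58, under the fold threshold, without contralateral library 3. In GENCODE vM21 the gene Gm20547 overlaps both C2 and Cfb on their strand, and Zbtb12 overlaps C2 on the other strand. Of these only Zbtb12 was among the counted genes. Whether the overlaps affected reads of C2 or Cfb was not tested.

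C3, the component on which the pathways converge, was not called by edgeR or DESeq2 in any of the 9 injury comparisons. Its unadjusted p was below 0.05 in 2 of them and its adjusted p in 1, STR/ort at 1-week. There the injured joints measured 470, 537, 618, 576 and 544 CPM and the contralateral joints 1009, 696, 673 and 774 CPM, with no overlap and the injured joints lower (log2 -0.53, SE 0.10, adjusted p = 4.54e-04). The fold of 1.44 was under the threshold, and it passed without contralateral library 2 (log2 -0.59) or 3 (log2 -0.59) or with 2 RUVg factors removed (log2 -0.76).

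Over all 9 injury comparisons 22 of 81 tests were called, all higher, which is 27.2% against 4.32% over all genes. The way the genes were chosen and the low-count genes in the background limit this comparison too. The counts were 2, 5 and 1 of 9 at 1-day in MRL/MpJ, C57BL/6 and STR/ort, where 1.53%, 4.26% and 1.61% of all genes were called higher. At 1-week they were 4, 2 and 2 (background 2.93%, 4.75% and 5.67%) and at 2-weeks 1, 3 and 2 (background 1.14%, 2.88% and 4.35%). The median log2 change of the 9 genes was 0.73 in C57BL/6 at 1-day, where that of all genes was -0.02, and it was -0.19 and -0.22 in STR/ort at 1-day and 1-week, where that of all genes was -0.02 and -0.03.

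Cell markers moved with several of these changes. In C57BL/6 at 1-day the macrophage sum was 817 to 953 CPM in injured and 627 to 688 CPM in contralateral joints, with 3 of 10 markers called higher. In STR/ort it was 604 to 660 and 576 to 683 CPM, with 2 called higher. The fibroblast sum was 16119 to 18331 against 7838 to 11834 CPM in MRL/MpJ at 1-week, with 8 of 10 called higher, and 23783 to 32769 against 12880 to 16783 CPM in STR/ort at 2-weeks, with 8 of 10. In C57BL/6 it was 17856 to 26862 against 12680 to 17535 CPM at 1-day, with 5 of 10 called higher, and 9 and 7 of 10 were called higher at 1-week and 2-weeks. In STR/ort at 1-week, where C2 and C3ar1 were called, 5 of 10 fibroblast markers were higher, and 5 of 6 muscle, 5 of 10 neutrophil and 3 of 10 macrophage markers were lower. The muscle sum there was 12132 to 26977 CPM in injured and 24682 to 48152 CPM in contralateral joints, and the neutrophil sum 8423 to 11954 against 13780 to 18452 CPM. In MRL/MpJ 3 of 10 fibroblast and 2 of 10 macrophage markers were higher at 1-day, and 7 of 10 fibroblast markers at 2-weeks. In STR/ort at 1-day 3 of 6 muscle markers were lower, and in C57BL/6 1 was higher at 1-day and 2 lower at 1-week. The part of these markers in the complement changes was not tested.

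The strains were then compared in how far injury moved each gene, as an interaction of strain and injury. The injury change of STR/ort at 1-day was smaller than that of C57BL/6 for 5 of the 9 genes, against 2.48% of all genes called lower. The differences in log2 change were -0.92 for C1qa (SE 0.15, adjusted p = 1.68e-04), -1.26 for C1qb (SE 0.23, adjusted p = 9.22e-04), -0.99 for C1qc (SE 0.15, adjusted p = 6.49e-05), -0.62 for C1ra (SE 0.14, adjusted p = 0.00946) and -1.18 for C3ar1 (SE 0.24, adjusted p = 0.00284). For C1ra the difference fell under 1.5-fold without STR/ort injured library 1 (-0.56) or contralateral library 2 (-0.52). The injury change of 5 of 10 fibroblast markers and 2 of 10 macrophage markers was also called smaller in STR/ort than in C57BL/6, and their part in these differences was not tested.

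C4b was the gene whose injury change differed at 1-week. It rose in MRL/MpJ, was 0.55 (SE 0.15, adjusted p = 0.0160) in C57BL/6 and was -0.42 (SE 0.16, adjusted p = 0.0524) in STR/ort, where contralateral libraries measured 198, 130, 77.4 and 117 CPM and injured ones 95.0, 99.5, 96.6, 96.0 and 102 CPM. In STR/ort C4b was called lower without contralateral library 3 or with 2 RUVg factors removed (-0.60 each). In C57BL/6 C4b was called higher without injured library 4 (0.59) or contralateral library 5 (0.69), or with scaling on housekeeping genes (0.61). The differences in injury change were -1.31 between STR/ort and MRL/MpJ (SE 0.26, adjusted p = 0.00701) and -0.97 between STR/ort and C57BL/6 (SE 0.22, adjusted p = 0.0385), where 0.52% and 0.352% of all genes were called lower. The second was lost in 13 of the refits that left out 1 library, with adjusted p up to 0.086. It was -0.69 without STR/ort contralateral library 1 and -0.89 to -0.97 in the other 12, and it was also lost when only its own groups were fitted (-0.99, adjusted p = 0.103). At 1-day 1 gene, C1qc, differed between C57BL/6 and MRL/MpJ (0.63, SE 0.15, adjusted p = 0.0467; background 0.283% called higher), and that call was lost in 16 such refits, at 0.56 to 0.65 with adjusted p of 0.0508 to 0.118, with scaling on housekeeping genes (0.57, adjusted p = 0.129) and with the replicate block (0.62, adjusted p = 0.0692). C1qa and C1qb were not called there but both were with DESeq2 (0.59 and 0.91, adjusted p = 0.0213 and 0.0234), so which C1q gene passed depended on the setting. At 1-week the injury change of 3 of 10 fibroblast markers was called smaller in STR/ort than in MRL/MpJ, and of 2 of 10 than in C57BL/6. For macrophage markers it was 1 of 10 in each. The part of these markers in the C4b differences was not tested. In all, 8 of 81 interaction tests were called, or 9.88% against 0.557% over all genes.

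Strain differences within each kind of joint depended on the time and the pair of strains. For C57BL/6 over MRL/MpJ, 7 of the 9 genes were called higher in injured and 5 in contralateral joints at 1-day (background 10% and 9%). At 1-week 1 was higher in each joint (background 4.78% and 4.53%) and 1 lower (4.69% and 4%), and in batch 2, at 2-weeks, 1 was higher in each (7.31% and 6.01%) and 1 lower in contralateral joints (3.83%). The background fell from 1-day to 1-week as well, and the change between times was not tested. The lower call in contralateral joints at 2-weeks, C2, was lost without MRL/MpJ contralateral library 3 or 4 (log2 -0.55 each). It was also lost without C57BL/6 contralateral library 3 (-0.54) or 4 (-0.58). MRL/MpJ had less C4b than either other strain at every time, in injured and contralateral joints alike, by log2 values from 1.73 to 3.89, and the highest of 33 MRL/MpJ libraries, at 21.3 CPM, was below the lowest of 34 C57BL/6 libraries, at 31.6 CPM. C1ra was higher in STR/ort than in MRL/MpJ in all 6 of these comparisons, by 0.71 to 1.24, although at 2-weeks in injured joints the call was lost when its copy C1rb was added (log2 0.58). So was C3ar1, by 0.73 to 1.92, although its call in injured joints at 1-day was lost with 1 or 2 RUVg factors removed (log2 0.76 and 0.78, adjusted p = 0.0764 and 0.0582) or with scaling on housekeeping genes (log2 0.55). C3ar1 in injured joints at 1-day was in turn lower in STR/ort than in C57BL/6 (log2 -0.61, SE 0.16, adjusted p = 0.00443), a call lost without C57BL/6 injured library 3 (-0.58) or 4 (-0.49) or STR/ort injured library 3 (-0.55), or with 1 or 2 RUVg factors removed (-0.59 and -0.58, adjusted p = 0.0749 and 0.0686). C2 was at 15.3 ± 1.25 CPM in injured MRL/MpJ, 9.90 ± 0.824 CPM in injured C57BL/6 and 16.8 ± 4.11 CPM in injured STR/ort joints at 1-week (SD, n = 5). Its difference of -0.63 for C57BL/6 over MRL/MpJ was called, and the call was lost without MRL/MpJ injured library 5 (-0.58) or with 2 RUVg factors removed (-0.56, adjusted p = 0.103). In injured and in contralateral joints alike 33 of 81 tests were called, or 40.7%, against 17.1% and 15.2% over all genes. Markers of several cell types moved with the strain: in these 6 comparisons STR/ort had 6 to 9 of 10 fibroblast markers called above MRL/MpJ and C57BL/6 had 0 to 8, and in STR/ort 5 or 6 of 6 muscle markers were called lower at 1-day and 1-week and 0 at 2-weeks. In each of the 6, STR/ort also had 7 of 8 chondrocyte, 2 to 6 of 6 osteoblast and 1 to 5 of 5 B cell markers called higher. In each, 3 of 3 erythroid and 2 to 5 of 5 T cell markers were lower. Macrophage markers went both ways in each, with 2 to 4 of 10 called higher and 1 or 2 lower. In contralateral joints at 2-weeks 1 chondrocyte marker was lower. In injured joints 6 of 10 neutrophil markers were lower at 1-week and 2 at 2-weeks. For C57BL/6 over MRL/MpJ at 1-day, 7 of 10 macrophage, 4 of 8 chondrocyte and 3 of 5 B cell markers were called higher in injured joints. In contralateral joints these were 5, 7 and 5, and 5 of 6 osteoblast markers were higher. In each joint 1 macrophage and 2 T cell markers were lower. For STR/ort over C57BL/6 in injured joints at 1-day, 2 of 10 macrophage markers were higher and 4 lower. There 5 of 6 muscle markers were lower. The part of the markers in these differences was not tested.

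Within batch 1, the contralateral joints of STR/ort did not stay at the level of uninjured joints. C3ar1 was 0.88 (SE 0.21, adjusted p = 0.00107) higher at 1-day than at 0-day and 1.01 (SE 0.22, adjusted p = 2.54e-04) higher at 1-week. C1qc went from 15.2, 13.9, 10.2 and 13 CPM at 0-day to 22.8, 22.7, 20.8, 24.9 and 23.8 CPM at 1-day and 34.8, 32.4, 21.7 and 26.1 CPM at 1-week, with no overlap with 0-day and log2 differences of 0.81 (SE 0.14) and 1.11 (SE 0.14). In all 5 of 9 genes were called higher at 1-day (background 2.58%) and 6 at 1-week (background 5.37%), C1qa, C1qb, C1qc, Cfb and C3ar1 at both and C4b at 1-week. The groups overlapped for C1qb and Cfb at 1-day and for C4b, Cfb and C3ar1 at 1-week. At 1-day the calls of C1qa, C1qb and Cfb were lost when replicate 2 was left out of every group (0.53, 0.45 and 0.42). Removing 1 RUVg factor ended the 1-day calls of C1qa, C1qb, Cfb and C3ar1, with log2 values of 0.51 to 0.89 and adjusted p of 0.0859 to 0.196, and that of C1qc held.

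In C57BL/6 the contralateral joints moved the other way at 1-week, with 3 genes lower than at 0-day (background 4.84%). C4b fell by 1.05 (SE 0.16), from 68.2 to 98.9 CPM at 0-day to 31.6 to 56.3 CPM, and Cfb by 0.90 (SE 0.18). C3ar1 fell by 0.72 (SE 0.22, adjusted p = 0.0199), a call lost without replicate 1 (-0.58), 2 (-0.73) or 4 (-0.63), with adjusted p of 0.0775 to 0.114. In injured C57BL/6 joints 6 genes were lower at 1-week than at 1-day (background 2.73%), C3ar1 by 1.99 (SE 0.18), C1qb by 1.06, Cfb by 1.01, C1qc by 0.75, C1qa by 0.69 and C4b by 0.61. The C4b call was lost without replicate 1 or 4 (-0.50 and -0.52) and that of C1qa without replicate 4 (-0.57), and both with scaling on housekeeping genes (-0.46 and -0.54). Injured MRL/MpJ joints had 1 such gene, C3ar1 (fell by 1.04, SE 0.19; background 0.843%), and injured STR/ort joints had C2 higher by 0.70 (SE 0.15; background 9.02%), or by 0.56 without replicate 1. C1ra in the same joints was at 0.57, just under 1.5-fold, and was called with RLE or DESeq2 (0.60 each) and with scaling on housekeeping genes (0.67).

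Over the 9 comparisons between times 12 of 81 tests were called higher and 10 lower, or 27.2% against 5.65% over all genes. The markers moved in the same contralateral joints. In STR/ort the macrophage sum went from 388 to 463 CPM at 0-day to 576 to 683 CPM at 1-day and 549 to 855 CPM at 1-week, and the fibroblast sum from 14468 to 17536 CPM to 20449 to 28365 and 19865 to 39980 CPM. The muscle sum was 67024 to 74838 CPM at 0-day, 27064 to 47034 CPM at 1-day and 24682 to 48152 CPM at 1-week, with 6 of 6 markers called lower at both times. In C57BL/6 the fibroblast sum was 16488 to 22348 CPM at 0-day and 7191 to 10961 CPM in contralateral joints at 1-week, with 9 of 10 markers called lower, as were 8 of 8 chondrocyte and 6 of 6 osteoblast markers. In injured C57BL/6 joints 6 of 10 macrophage, 4 of 5 fat and 3 of 6 osteoblast markers were lower at 1-week than at 1-day. There 2 of 5 T cell markers and 1 of 10 neutrophil markers were higher. In injured STR/ort joints 7 of 10 fibroblast markers were higher at 1-week than at 1-day. There 2 of 10 macrophage, 2 of 6 osteoblast and 2 of 5 T cell markers were lower, and 1 osteoblast marker higher. In injured MRL/MpJ joints 5 of 10 fibroblast markers were higher and 1 lower. The part of these markers in the changes over time was not tested.

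**Figure D3:**
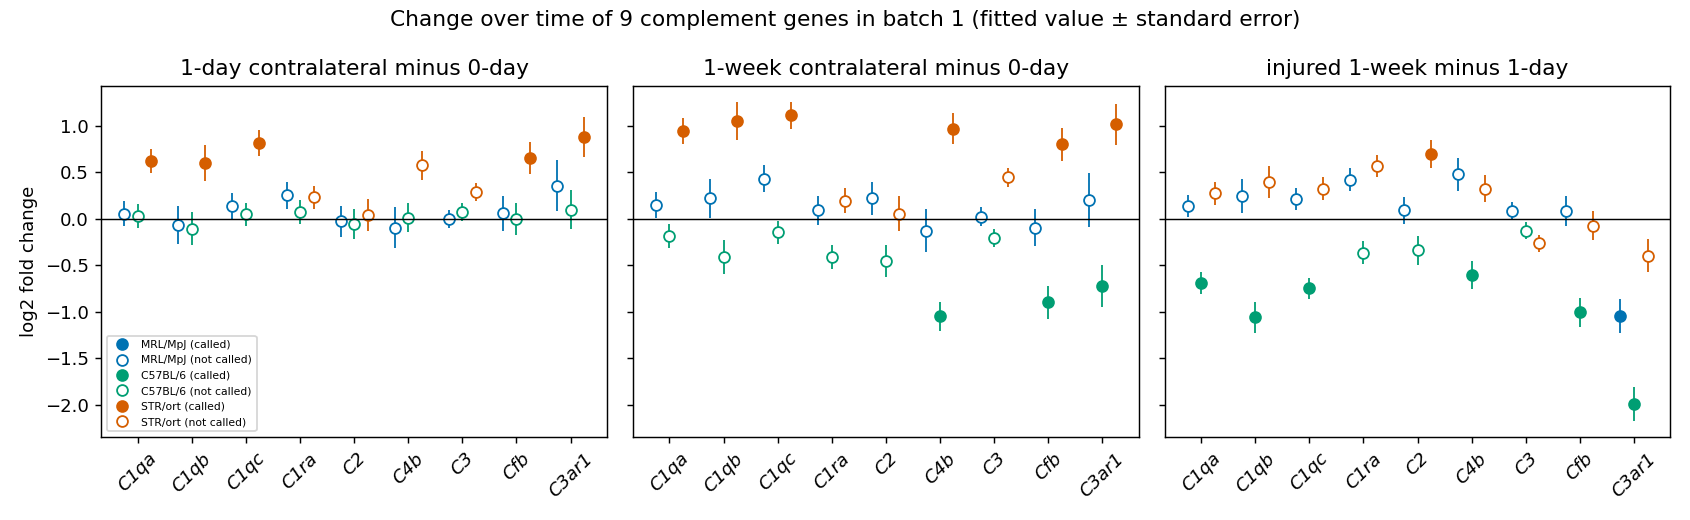
Fitted log2 differences of the 9 genes within batch 1, with standard errors, for contralateral joints at 1-day and 1-week over 0-day and for injured joints at 1-week over 1-day, where filled points were called. STR/ort contralateral joints rise by up to 1.11, and C3ar1 in injured C57BL/6 joints falls by 1.99 on the log2 scale.

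The C1q chains did not keep a constant proportion across batches. C1qc was at 10.2 to 69.6 CPM in all libraries. The log2 ratio of C1qc to C1qa had a median of -1.40 in batch 1 and -0.51 in batch 2 for STR/ort, -1.15 and -0.25 for MRL/MpJ, and -0.48 and -0.09 for C57BL/6. The 2 batches did not overlap in any strain, with C57BL/6 at -0.74 to -0.33 in batch 1 and -0.27 to -0.04 in batch 2. The ratio of C1qb to C1qa went the other way, from -1.09 to -2.24 in C57BL/6. Both changes separate 2-weeks from all earlier times, and time and batch are the same split here, so no test was made between their levels at 2-weeks and earlier.

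**Figure D4:**
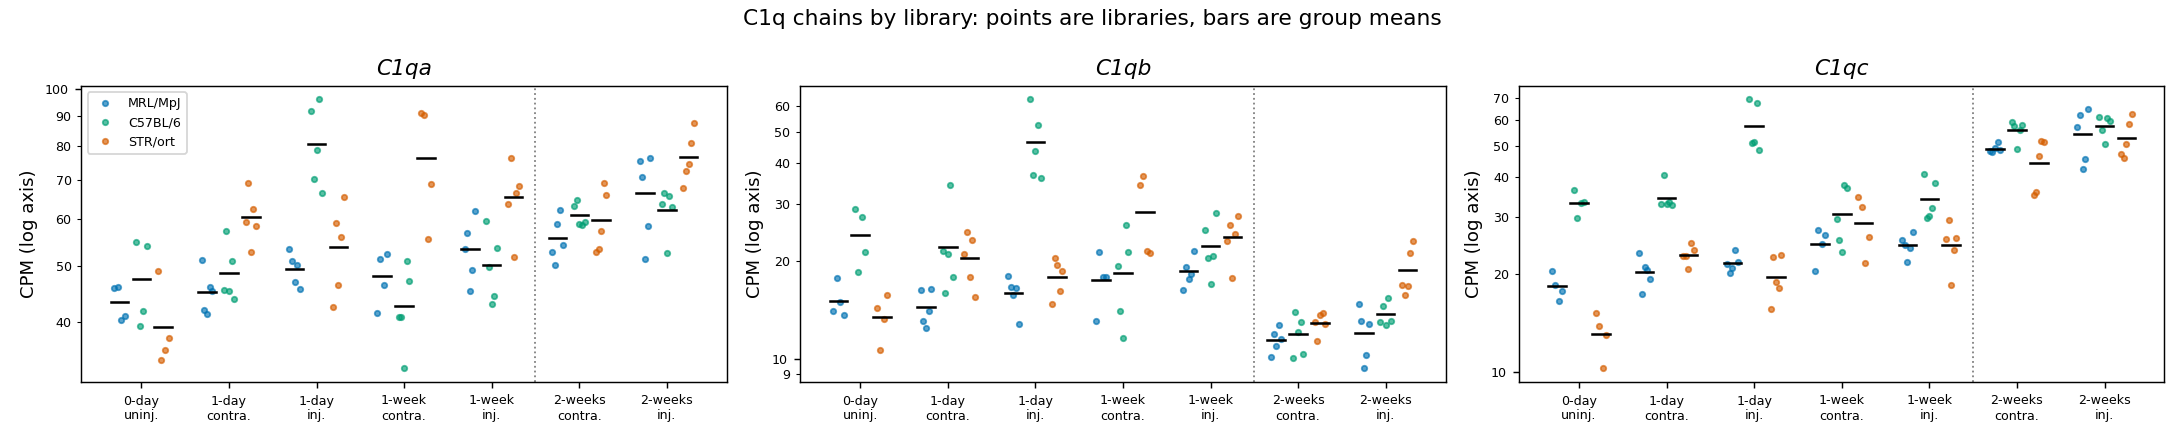
Levels of C1qa, C1qb and C1qc in each library (points, CPM on a log axis) with group means (bars), where the dotted line separates batch 1 from batch 2. The injured C57BL/6 joints at 1-day stand high for all 3 chains, and at 2-weeks C1qc group means are between 44.1 and 57.7 CPM.

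Some of the 9 genes have near-identical copies that may share reads. C4a, a copy of C4b that RefSeq lists as a transcribed pseudogene, was at 1.28 ± 0.699 CPM in MRL/MpJ, 0.255 ± 0.150 in C57BL/6 and 0.311 ± 0.134 in STR/ort at 0-day (SD, n = 4). Its share of C4b and C4a counts had a median of 10.1% over MRL/MpJ libraries and of 0.551% and 0.503% in C57BL/6 and STR/ort. C1rb, the copy of C1ra, took 5.98% in MRL/MpJ and 0.121% and 0.251% in the others, and C1s2, the copy of the C1s gene C1s1, took 8.85%, 0.361% and 0.387%. All 3 copies had a larger share in every MRL/MpJ library than in any other library. With C4a added to C4b, the 0-day differences remained at 2.94 (adjusted p = 4.88e-11) for C57BL/6 and 2.58 (adjusted p = 3.35e-10) for STR/ort over MRL/MpJ.

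Of 47 other complement genes, 42 were in the table, and over the 9 injury comparisons 18 of their 378 tests were called higher and 11 lower, together 7.67% against 4.32% over all genes. C1s1, the C1s protease, was higher after injury in 5 comparisons, at 1-week in MRL/MpJ and C57BL/6 and at 2-weeks in all 3 strains, by 0.60 to 0.88. Masp1, a protease of the lectin pathway, was higher in 5, in C57BL/6 and STR/ort at 1-day and 1-week and in STR/ort at 2-weeks, and its log2 values ran from 0.60 to 1.57 over the 9 comparisons at levels of 0.541 to 8.47 CPM. Cfd, the fat-derived factor D that cleaves bound factor B, was lower in 4 comparisons, C57BL/6 and STR/ort at 1-day and 1-week, with log2 values of -0.94, -0.76, -0.76 and -1.06. Of 5 fat markers, 0 and 3 were called lower in C57BL/6 and STR/ort at 1-day and 1 in each at 1-week, and their part in the Cfd values was not tested. At 0-day Cfd differed between all strains, with means of 73.0 CPM in MRL/MpJ, 166 in C57BL/6 and 48.0 in STR/ort, and so did Vsig4, a macrophage receptor for C3 fragments, with 2.96, 6.55 and 14.1 CPM. C1s1 was lowest in MRL/MpJ at 0-day, as C1ra and C4b were, at 40.8 CPM beside 82.1 and 104 CPM. Between strains at 0-day 47 of 126 tests of these genes were called, or 37.3% against 14.8% over all genes. At 0-day 1 strain also stood apart from both others for the lectin pathway genes Masp2 (C57BL/6), Fcna and Colec11 (STR/ort) and Colec10 and Colec12 (MRL/MpJ), the terminal components C6 (STR/ort) and C7 (C57BL/6), the regulators Cd59a and Vtn (C57BL/6), Cd59b (MRL/MpJ) and Csmd1 (STR/ort), and the receptors C5ar2 and Cd93 (MRL/MpJ) and Itgam (STR/ort).

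Across libraries, the 9 genes varied together to different degrees within groups. After each gene's group mean was removed, Pearson's r over 100 libraries was 0.85 between C1qa and C1qc, 0.75 between C4b and Cfb, 0.67 between C1qa and C1qb and 0.61 between C1qb and C1qc. C3 followed the others least, with r from 0.07 with C1ra to 0.41 with C4b. Over the 21 group means, which span both batches, the highest value among the 9 was 0.94, between Cfb and C3ar1, and the C1q genes had 0.65 for C1qa and C1qc, 0.37 for C1qa and C1qb and 0.02 for C1qb and C1qc. These are descriptions, and the libraries share depth, batch and cell content.

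**Figure D5:**
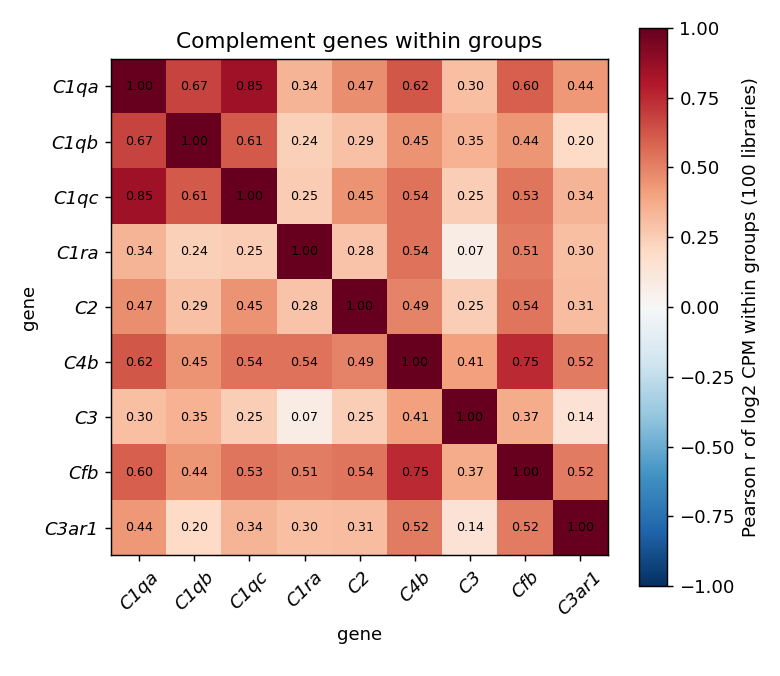
Pearson's r between the 9 genes over 100 libraries after the group means of log2 CPM were removed, on a scale from -1 to 1. The C1q genes form 1 block with r of 0.61 to 0.85, C4b and Cfb reach 0.75, and the C3 row is the palest.

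Among 13981 genes with a mean of at least 1 CPM, those whose 21 group means were most like the mean of the 3 C1q genes, which differed among themselves over these means, were Lrrk1 (r = 0.85), Abca9 (0.84), Siae (0.82), Stab1 (0.82) and Grn (0.80). C3 was followed by Atp6v1b2 (0.95), Card6 (0.95), Tbc1d31 (0.93), Psmb8 (0.93) and Pdcd4 (0.93). C4b was followed by Capg and Mamdc2 (both 0.98), Igfbp2 (0.96), Zfp277 (0.95) and Fggy (0.95), and Cfb by Sod3, S100a4 and Dab2 (all 0.98), Vim (0.96) and Pde1a (0.96). Each value is across 21 groups that share strains, times and batches.

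Ordered by group mean over both batches, which cannot be told apart from time, C3ar1 ran from 5.42 CPM in contralateral MRL/MpJ joints at 2-weeks to 92.1 CPM in injured C57BL/6 joints at 1-day, a 17.0-fold range. C4b spanned 14.6-fold, from 8.94 to 131 CPM, and Cfb 5.47-fold, from 15.2 to 82.9 CPM. C1qc spanned 4.41-fold, C1qb 4.04-fold, C1ra 3.38-fold, C2 2.13-fold, C1qa 2.06-fold and C3 1.98-fold. The lowest and highest groups were in the same batch for C4b, C2 and C1qa, and in different batches for the other 6 genes. Neighbouring groups in this order mostly overlapped: of 20 neighbouring pairs, 2 did not overlap for C3ar1, 2 for C4b and 1 for C1qc.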

How the data were processed

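RNA from whole knee joints was sequenced, and the deposited table holds read counts per gene and library. Per the study's methods, the authors aligned reads to mm10 with TopHat2 2.0.11 and counted them with featureCounts. The counts are not normalized. The members and gene lists were chosen with earlier results of these data known. Of 17313 rows, 3 repeated entries were dropped, and 24 gene names had turned into dates. Genes with at least 2 counts in at least 5 libraries were kept, which removed 0 of 17310. Library totals had a median of 10582592. No 2 libraries of a group were identical (0 of 190 pairs).

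TMM factors were computed in edgeR 4.0.16 (R 4.3.3), and each time point was fitted with all of its groups using glmQLFit and glmQLFTest. Batch 1 was fitted together for comparisons over time. P-values were adjusted over all genes by the Benjamini-Hochberg method, with calls at adjusted p below 0.05 and fold above 1.5. The steps recovered 182 of 200 genes changed by a log2 of 1 in simulated C57BL/6 1-day injury data, with 2 false calls. Alternatives were RLE scaling, DESeq2 1.42.0, RUVg, housekeeping scaling, other filters, other sets of groups, a replicate block and leaving out libraries. Text names all 9 members. Of other complement genes it names those called in at least 3 injury comparisons, those with 1 strain apart at 0-day, and copies of members.

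Same-numbered injured and contralateral joints are the same animal by the 2-weeks labels. Their deviations from the group means correlated with r of 0.18 to 0.27 in C57BL/6, 0.21 to 0.45 in STR/ort and -0.28 to 0.08 in MRL/MpJ. At 1-week all 4 STR/ort pairs had r of 0.16 to 0.37, while at 1-day in all 3 strains and at 1-week in the remaining strains not every pair passed 0.1.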

Additional observations from a re-analysis of the deposited data

Results flagged for a closer look

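In 17 of 189 groups of 4 or 5 libraries, 1 library stood far from the rest by Dixon's criterion, and chance gives such a gap in about 1 in 20 groups. In C57BL/6 these were C1qa at 52.4 CPM in injured joint 3 at 2-weeks, C1qc at 40.5 in contralateral joint 2 at 1-day, C1ra at 22.2 in joint 4 at 0-day and at 18.1 in injured joint 3 at 2-weeks, C3 at 873 in injured joint 1 at 1-day, and C3ar1 at 20.5 in injured joint 3 at 1-week. In MRL/MpJ they were C1ra at 13.3 CPM in contralateral joint 2 at 1-day and at 14.1 in injured joint 3 at 2-weeks, C2 at 17.8 in contralateral joint 1 at 1-day and at 17.5 in injured joint 5 at 1-week, and C3 at 349 in injured joint 4 at 2-weeks. MRL/MpJ also had Cfb at 28.4 CPM in contralateral joint 1 at 1-day and at 21.8 in contralateral joint 4 at 2-weeks, and C3ar1 at 53.1 in injured joint 2 at 1-day. In STR/ort they were C1ra at 38.9 CPM in injured joint 5 at 2-weeks, C4b at 105 in injured joint 5 at 1-day, and C3ar1 at 14.9 in contralateral joint 4 at 2-weeks.

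The injury change was called different between strains in 8 of 81 interaction tests, or 9.88% against 0.557% over all genes. For STR/ort over C57BL/6 at 1-day the log2 differences were -0.92 for C1qa, -1.26 for C1qb, -0.99 for C1qc, -0.62 for C1ra and -1.18 for C3ar1, and for C57BL/6 over MRL/MpJ at 1-day 0.63 for C1qc. At 1-week C4b differed by -1.31 for STR/ort over MRL/MpJ and by -0.97 for STR/ort over C57BL/6. The calls of C1qc for C57BL/6 over MRL/MpJ, of C1ra, and of C4b for STR/ort over C57BL/6 were lost in some refits without 1 library. That C1qc call was also lost with housekeeping scaling or the replicate block, and that C4b call when only its own groups were fitted.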

How the results depend on the processing

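The counts of called tests over each family of comparisons stayed within 1.5 times the reported ones under every alternative run. Within single comparisons, the counts of called genes moved further in 14 of 48 comparisons when libraries were left out and in 14 under the other alternatives. With 2 RUVg factors removed, the count for C57BL/6 over MRL/MpJ went from 6 to 3 at 0-day and from 2 to 1 in injured joints at 1-week, that for injury in STR/ort from 1 to 2 at 1-day and from 2 to 4 at 1-week, and that for STR/ort contralateral joints at 1-day over 0-day from 5 to 2, or to 1 with 1 factor. With 2 factors the count for STR/ort over MRL/MpJ in contralateral joints at 1-week went from 7 to 3. The count for STR/ort over C57BL/6 in injured joints at 1-day went from 4 to 2 with 1 or 2 factors. At 1-week it went from 5 to 3 with 1 factor. Of the counts of 1 interaction call, that for C57BL/6 over MRL/MpJ at 1-day went to 0 with housekeeping scaling and to 3 with DESeq2, and that for STR/ort over C57BL/6 at 1-week to 0 when only its own groups were fitted. Leaving out libraries gave 11 to 13 calls for strain at 0-day, 21 to 23 for injury, 7 to 11 for injury by strain, 31 to 34 and 31 to 36 for strain in injured and contralateral joints, and 18 to 24 for time. With 1 RUVg factor removed, 2 differences changed sign, both for C1qb in contralateral joints at 1-week, to -0.16 for STR/ort over MRL/MpJ (adjusted p = 0.766) and to -0.0765 for STR/ort over C57BL/6 (adjusted p = 0.881), and the cause was not tested. RUVg with 1 factor ended 16 calls, these 2 included, and added 5, and with 2 factors it ended 23 and added 10. With the replicate block, 22 injury and 9 injury-by-strain tests were called. It ended the call of C1qc for C57BL/6 over MRL/MpJ at 1-day (0.62, adjusted p = 0.0692), added C1qb there (0.91, adjusted p = 0.0325) and C2 for STR/ort over MRL/MpJ at 1-week (0.87, adjusted p = 0.0169), and changed no other call. Adding the copies to C4b and C1ra, an alternative chosen after seeing the data, ended 1 call and added 1. Without TMM factors the group with the highest C1qc was C57BL/6 1-day injured and that with the lowest C1ra MRL/MpJ 0-day, and the ends of the order were the same for the other 7 genes. The low-count filter removed 0 genes, so dropping it changed nothing. DESeq2 ended 0 calls and added 3, RLE scaling ended 0 and added 1, scaling on housekeeping genes ended 11 and added 6, and fitting only the groups compared ended 3 and added 2. The lowest counts in a library were 33 for C2 and 34 for C3ar1.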
